A study of Mus musculus with 10 samples.

Results

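The small leucine-rich proteoglycans are secreted matrix proteins with a short core of leucine-rich repeats, and 9 of their genes, Dcn, Bgn, Lum, Fmod, Ogn, Omd, Aspn, Prelp and Kera, were followed in MC3T3-E1 cells given β-ecdysterone. They were taken by symbol from a table of 29583 genes, and all 9 had a row. MC3T3-E1 is a line of bone-forming precursor cells from the skull of a newborn C57BL/6 mouse, used at the third passage, although the source field of the labels names bone marrow mesenchymal stem cells. β-Ecdysterone is a plant steroid with the skeleton of insect moulting hormones. Cells were kept in standard medium with 0, 100, 150 or 200 μM for 5 or 10 days, and polyadenylated RNA was sequenced from 1 library per dose and day. Another 2 libraries, A-5 and B-4, are labelled as untreated and carry no time. The 6 libraries with β-ecdysterone are called treated, and the 3 doses of a day stood in for replicates, so their spread holds dose as well as replicate error. The labels give n = 3 for the RNA extraction without saying whether RNA was pooled. Nothing in them says that the libraries came from separate cultures, so p-values measure the spread between these libraries.

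The cores of this family bind collagen and set the width and spacing of its fibrils, and several also bind growth factors such as TGF-β. Biglycan (Bgn) and decorin (Dcn) carry chondroitin or dermatan sulfate chains, and asporin (Aspn) is their close relative without such chains. Fibromodulin (Fmod), lumican (Lum), osteomodulin (Omd, also osteoadherin), PRELP (Prelp) and keratocan (Kera) form a second class, in which most members can carry keratan sulfate, and osteoglycin (Ogn, also mimecan) belongs to another. In bone, biglycan and decorin are abundant in the matrix, osteomodulin is known as a product of osteoblasts, and keratocan is best known from the cornea.

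The genes lay in 3 groups and 1 single place in the genome (GENCODE M21 on GRCm38). Aspn (ENSMUSG00000021388), Omd (ENSMUSG00000048368) and Ogn (ENSMUSG00000021390) stood in that order on the plus strand at chr13:49544443-49624501, and Dcn (ENSMUSG00000019929), Lum (ENSMUSG00000036446) and Kera (ENSMUSG00000019932) on the plus strand at chr10:97479609-97613692. Prelp (ENSMUSG00000041577, minus strand) and Fmod (ENSMUSG00000041559, plus strand) spanned chr1:133910304-134048277, and Bgn (ENSMUSG00000031375, plus strand) stood alone at chrX:73483602-73495933. The 250 bases before the RefSeq start (GRCm38.p6) of the 3 neighbours on chromosome 13 are shown because these neighbours all rose in treated cells against 0 μM; capitals mark TATAAA and TGTGGT on either strand.
Aspn: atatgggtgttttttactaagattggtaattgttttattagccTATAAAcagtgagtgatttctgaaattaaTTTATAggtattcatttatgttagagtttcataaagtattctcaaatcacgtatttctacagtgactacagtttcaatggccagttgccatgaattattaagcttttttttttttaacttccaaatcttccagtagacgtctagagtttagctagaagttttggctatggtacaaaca
Omd: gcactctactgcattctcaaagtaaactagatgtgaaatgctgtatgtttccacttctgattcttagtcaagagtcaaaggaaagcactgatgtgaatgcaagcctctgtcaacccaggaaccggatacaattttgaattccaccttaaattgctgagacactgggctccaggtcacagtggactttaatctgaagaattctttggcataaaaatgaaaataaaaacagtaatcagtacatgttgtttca
Ogn: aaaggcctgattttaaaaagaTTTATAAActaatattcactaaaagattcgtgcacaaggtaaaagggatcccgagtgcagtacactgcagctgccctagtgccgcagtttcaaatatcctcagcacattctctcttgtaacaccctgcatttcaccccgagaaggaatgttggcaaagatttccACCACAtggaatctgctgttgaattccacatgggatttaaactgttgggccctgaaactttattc
These windows lie on the plus strand at chr13:49544193-49544442 for Aspn, chr13:49582212-49582461 for Omd and chr13:49607765-49608014 for Ogn. TATAAA began 207 bases before the start of Aspn, with another on the minus strand at 178 bases. In Ogn it stood at 227 and, overlapping on the minus strand, at 229 bases. TGTGGT, the core letters bound by RUNX factors, was found on the minus strand 65 bases before the start of Ogn. In Omd none of the 4 motifs searched on both strands was found. Motifs were counted over whole windows, which also hold a short stretch past the start that is not shown above. RefSeq windows were at hand for 7 of the 9 genes. Among these 7, TATAAA was in Aspn and Ogn, against 13.6% of 32851 windows, TGTGGT was in Ogn, against 16.8%, the GC box GGGCGG was in Bgn, against 35.7%, and the AP-1 site TGANTCA was in none, against 7.81%. These matches are descriptions of letters, and binding was not measured.

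Library totals ran from 27108562 to 58218009 counts. The 0 μM library of day 5 and the treated libraries of 150 μM at day 5, 150 μM at day 10 and 200 μM at day 10 held over 40000000 counts, and the other 6 held fewer. The 8 genes other than Kera had at least 64 counts in every library, so none of them entered the test through the treated libraries alone. Among osteoblast markers, Runx2 was present at 16.3 and 14.8 FPKM at 0 μM, whereas Alpl, the bone alkaline phosphatase, had 0 counts at day 5 and 2 at day 10 there, against 486 to 3460 in treated libraries. Of the markers of other cell types, Ptprc (leukocytes) had at most 12 counts, Adipoq (adipocytes) at most 6 and Myod1 (muscle) at most 2 in a treated library. Other genes of these lists were present there, with 1317 to 2182 counts of Lyz2 (macrophages, called up at 1.09 against 0 μM), 85 to 407 of Des (muscle, called up at 1.56) and 61 to 178 of Fabp4 (adipocytes, 0.63, not called). In bulk RNA, fewer cells with a transcript and less transcript per cell cannot be told apart.

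Per length, biglycan was the most abundant of the 9 genes in the treated libraries. Its median was 889.8 FPKM (fragments per kilobase of transcript and per fixed number of fragments sequenced), followed by Ogn with 374 FPKM, Fmod with 286 FPKM, Aspn with 123 FPKM and Dcn with 50.7 FPKM. Omd (25.7 FPKM), Lum (12 FPKM) and Prelp (11.7 FPKM) were lower, and Kera had 0.017 FPKM. Bgn lay above Ogn in 6 of 6 treated libraries without overlap of their ranges. The ranges of Fmod, Aspn, Dcn and Omd overlapped from each to the next, although each lay above the next in 6 of 6 libraries. Ogn exceeded Fmod in 4 of 6, Omd exceeded Lum in 5 of 6 and Lum exceeded Prelp in 4 of 6, so these 3 pairs of neighbours in the order did not differ beyond their spread. At 0 μM the order by median was Bgn, Ogn, Fmod, Dcn, Prelp, Aspn, Lum, Omd. Prelp (median 5.92 FPKM) lay above Aspn (5.82 FPKM) in 2 of 2 libraries there. Their ranges overlapped, so with 2 libraries the sixth place of Aspn was not settled. Aspn held the fourth place in treated cells. With CPM per kilobase of merged exons in place of the deposited FPKM, Ogn came first and Bgn second in treated cells.

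**Figure D1:**
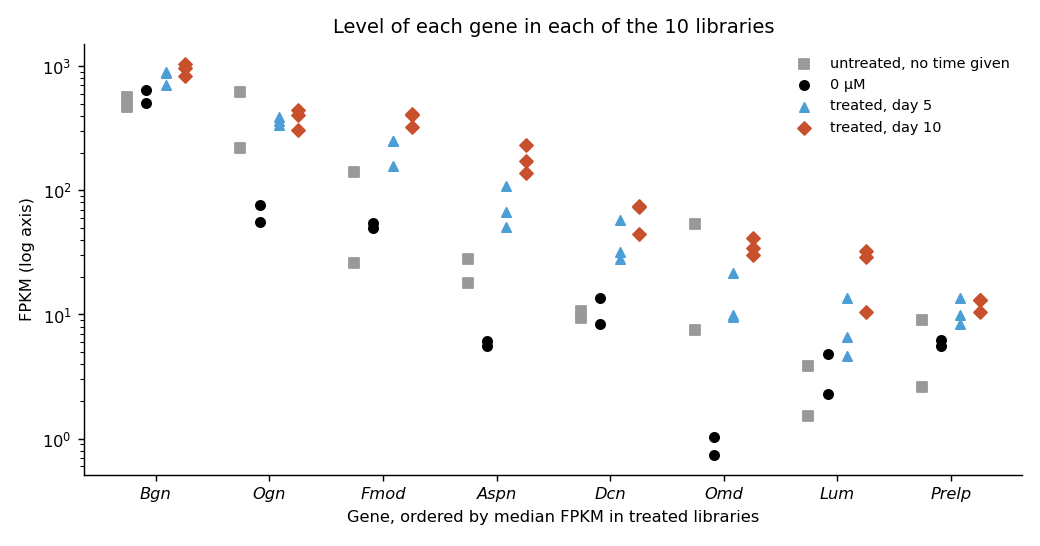
FPKM (log axis) of 8 genes in each of the 10 libraries, 1 point per library, with genes ordered by their median in treated libraries; Kera (0.017 FPKM) is left out. Grey squares are untreated, black circles 0 μM, blue triangles treated for 5 days and red diamonds treated for 10 days. Omd and Aspn show the widest gap between 0 μM and treated libraries, and an untreated library of Ogn (624 FPKM) and of Omd (53.4 FPKM) lies above every treated one.

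The summed FPKM of the 9 genes was 644 at 0 μM on day 5 and 793 on day 10. In treated libraries it lay between 1428 and 2150.3, and in the untreated libraries it was 853 (A-5) and 1334 (B-4). Biglycan made up 79.0% and 80.4% of this sum at 0 μM and 49.8% ± 4.68 (SD, n = 6) in treated libraries. Fmod was 7.31% ± 0.523 (SD, n = 2) of it at 0 μM and 16.3% ± 3.27 (SD, n = 6) in treated libraries. For Ogn these means were 9.13% ± 0.679 and 21.2% ± 3.57, and for Aspn 0.815% ± 0.0651 and 6.98% ± 3.2. Prelp had 0.829% ± 0.0601 and 0.64% ± 0.0985. These shares were not tested. In untreated B-4 biglycan was 35.1% and Ogn 46.8% of the sum, which no treated library showed.

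**Figure D2:**
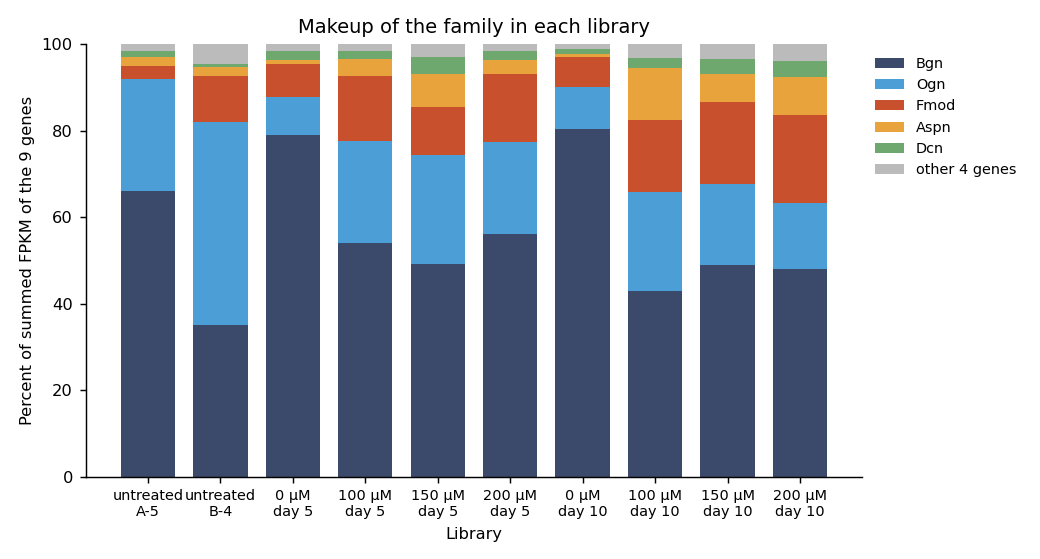
Share (percent) of the summed FPKM of the 9 genes taken by Bgn, Ogn, Fmod, Aspn, Dcn and the other 4 genes together, 1 bar per library. The Bgn share is 79.0% and 80.4% at 0 μM and between 43.0% and 56.1% with β-ecdysterone, and B-4 has the largest Ogn share (46.8%).

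The main question of the study was what β-ecdysterone changes. In treated cells against 0 μM, with day as a covariate, 5 of the 8 genes tested were called up at a log2 fold change over 1 and a Benjamini-Hochberg adjusted p under 0.05 in edgeR's quasi-likelihood test, namely Omd, Aspn, Ogn, Fmod and Dcn, and 0 were called down. Of 16794 genes tested, 13.4% were called up and 5.98% down. Their median log2 fold change was 0.05, against 2.33 for the 8 genes. Without the fold limit 7 of the 8 passed upwards, against 22.6% of all genes tested. In all 8 genes the 6 treated libraries lay above both 0 μM libraries in CPM (counts scaled to a common library size, with TMM factors), which 27.5% of genes tested showed. Not all 5 calls held against the untreated libraries, where Dcn and Aspn alone were called up. Untreated A-5 held 3 and B-4 held 4 of the 8 genes at over 2 times both 0 μM libraries, against 5.23% and 12.3% of all genes.

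Omd and Aspn had the highest log2 fold changes against 0 μM, and their order was not settled, since their values lay within their errors and turned with limma on log2(FPKM + 1), at 3.56 for Omd and 4.06 for Aspn. Omd had 1.36 CPM at 0 μM on day 5 and 2.02 CPM on day 10. With 100, 150 and 200 μM it had 19.4, 37.2 and 17.7 CPM on day 5 and 81.4, 57.5 and 62.5 CPM on day 10. Every treated library was at least 13 times and at most 40.2 times the 0 μM library of its day, and the groups did not overlap. The log2 fold change was 4.61 (SE 0.39, edgeR adjusted p = 2.12e-05). The untreated libraries had 14.2 CPM (A-5) and 99.5 CPM (B-4), the second above all treated libraries. Against them Omd stood at -0.32 (SE 0.71, edgeR adjusted p = 0.786), and with them added to 0 μM it was 0.65 (edgeR adjusted p = 0.657).

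Asporin binds collagen and TGF-β. Aspn had 14.1 and 15.6 CPM at 0 μM on days 5 and 10. Treated libraries of day 5 had 175, 269.6 and 131 CPM with 100, 150 and 200 μM, and those of day 10 had 653, 376 and 454 CPM. All 6 were 9.34 to 41.9 times the 0 μM library of their day, without overlap. This gave a log2 fold change of 4.31 (SE 0.43, edgeR adjusted p = 4.95e-05), with 4.99 without the 0 μM library of day 5 and 3.75 without that of day 10. Untreated A-5 had 44.7 CPM and B-4 73.7 CPM, both between 0 μM and treated levels, and against these 2 the call held at 2.53 (SE 0.63, edgeR adjusted p = 0.0216).

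Ogn was the second most abundant gene of the family in FPKM and, of the 5, had the smallest SD relative to its mean over treated libraries (1098 ± 182 CPM, n = 6). It had 157 and 215 CPM at 0 μM. Treated libraries had 1126, 1001 and 969 CPM on day 5 and 1379, 1222 and 889.8 CPM on day 10, in the order of dose. They were 4.13 to 7.19 times the 0 μM library of their day, and the log2 fold change was 2.57 (SE 0.19, edgeR adjusted p = 8.58e-06). The untreated libraries had 618 CPM (A-5) and 1834 CPM (B-4), and against them the log2 fold change was -0.17 (SE 0.34, edgeR adjusted p = 0.757). With the untreated libraries added to 0 μM it was 0.63 (edgeR adjusted p = 0.434). For Ogn and Omd the values against the untreated libraries lay within their errors of 0, so no change in either direction was shown there. In both genes every treated library lay above A-5 and below B-4.

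Fmod, a collagen-binding core known from tendon and cartilage, had 169 and 189 CPM at 0 μM. Treated libraries had 876, 533 and 866 CPM on day 5 and 1228, 1489 and 1440.1 CPM on day 10. All 6 were above both 0 μM libraries, by 3.16 to 7.90 times on the same day. Its log2 fold change was 2.49 (SE 0.25, edgeR adjusted p = 5.52e-05). Against the untreated libraries, of 86.9 CPM (A-5) and 504 CPM (B-4), it was 1.85 (SE 0.64, edgeR adjusted p = 0.0699), which missed the threshold.

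**Figure D3:**
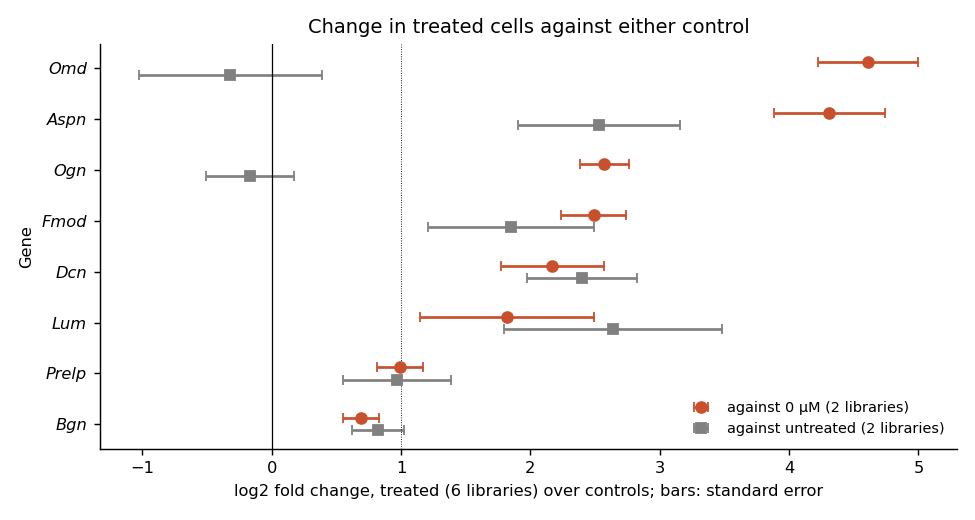
Log2 fold change of 8 genes in the 6 treated libraries against the 2 libraries at 0 μM (red circles, day as a covariate) and against the 2 untreated libraries (grey squares); bars are standard errors and the dotted line is the fold limit. Omd (4.61 and -0.32) and Ogn (2.57 and -0.17) differ between the controls, whereas Dcn (2.17 and 2.40) and Bgn (0.69 and 0.82) lie close together.

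Decorin and lumican, which lie next to each other on chromosome 10, had like profiles. Dcn had 26.4 CPM at 0 μM on day 5 and 16.1 CPM on day 10. Treated libraries had 56.0, 109 and 63.3 CPM on day 5 and 94.4, 151 and 148 CPM on day 10. All 6 lay above both 0 μM libraries and both untreated libraries (20.1 CPM in A-5, 19.0 CPM in B-4). The log2 fold change was 2.17 (SE 0.40, edgeR adjusted p = 0.0018) and passed as well against the untreated libraries, at 2.40 (SE 0.42, edgeR adjusted p = 0.00601). It was 1.51 without the 0 μM library of day 10 and 3.03 without that of day 5, and the call held in both.

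Lum, which regulates collagen fibrils in cornea, skin and tendon, did not pass. It had 12.8 and 6.2 CPM at 0 μM, 12.9, 36.0 and 18.1 CPM in treated libraries of day 5 and 31.4, 92.6 and 81.2 CPM in those of day 10. The library of 100 μM at day 5 was 1.01 times its 0 μM library, a difference that turns in FPKM (4.65 against 4.78 FPKM). The log2 fold change was 1.82 (SE 0.67, edgeR adjusted p = 0.0503). It passed in 12 of 19 alternatives, among them DESeq2 (adjusted p = 0.0413). It was 0.79 (edgeR adjusted p = 0.40) without the 0 μM library of day 10 and 3.47 (edgeR adjusted p = 0.00782) without that of day 5. Leaving out 100 μM at day 5 or 100 μM at day 10 also brought it past the threshold, at 2.11 (edgeR adjusted p = 0.0269) and 1.89 (edgeR adjusted p = 0.0481).

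Both genes differed between libraries of high and low total, a split that runs in part with dose, since the 3 treated libraries over 40000000 counts are of 150 or 200 μM and those below are both of 100 μM and 200 μM at day 5. The 3 treated libraries over 40000000 counts had 136 ± 23.5 CPM of Dcn and 69.9 ± 29.9 CPM of Lum, and the 3 below had 71.2 ± 20.4 and 20.8 ± 9.54 CPM (SD, n = 3 each). With day as a covariate, the difference between these libraries was 1.34 on the log2 scale for Lum (SE 0.14) and 0.77 for Dcn (SE 0.09), and between -0.23 and 0.27 for the other 6 genes. This split was made after the values were seen, so these differences are a description without a test. With the library total class as a covariate, the treatment difference was 2.21 for Dcn (edgeR adjusted p = 2.06e-06) and 1.96 for Lum (edgeR adjusted p = 4.95e-05), and since the split was prompted by these data, this p is no independent support. Within a class and a day, 150 μM was 4.14 times (Dcn) and 2.80 times (Lum) the 0 μM library on day 5, and 100 μM was 5.86 times (Dcn) and 5.07 times (Lum) that of day 10.

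**Figure D4:**
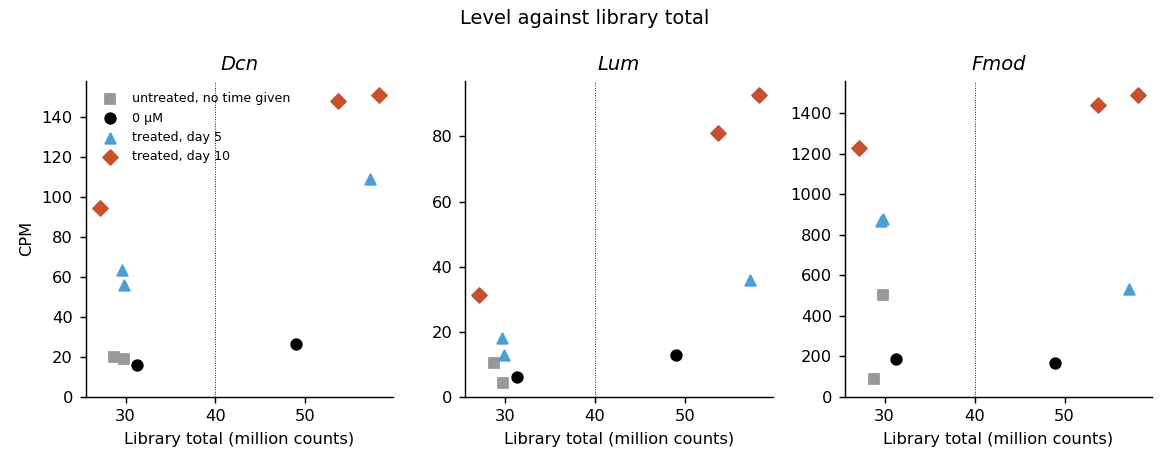
CPM of Dcn, Lum and Fmod against library total, 1 point per library, with the dotted line at 40000000 counts. At a given day Dcn and Lum lie higher in treated libraries to the right of the line (136 against 71.2 CPM for Dcn, 69.9 against 20.8 CPM for Lum, as means over both days), whereas Fmod on day 5 is lowest there (533 CPM).

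Bgn and Prelp passed the adjusted p with changes under the fold limit. Bgn had 1348 and 1698 CPM at 0 μM, 2449.7, 1835 and 2403 CPM in treated libraries of day 5 and 2447, 2973 and 2629 CPM in those of day 10. The log2 fold change was 0.69 (SE 0.14, edgeR adjusted p = 0.00379), and all 6 treated libraries exceeded all 4 controls. Prelp, a core rich in arginine and proline at its end that links basement membranes to connective tissue, had 22.2 and 24.8 CPM at 0 μM, 55.7, 33.1 and 40 CPM in treated libraries of day 5 and 45.7, 55.1 and 54.0 CPM in those of day 10. Its log2 fold change was 0.99 (SE 0.18, edgeR adjusted p = 0.00173) and crossed the fold limit when single libraries were left out, with a range of 0.88 to 1.08. It passed the limit, at 1.05, 1.01, 1.08 and 1.02, without 0 μM at day 5, 200 μM at day 5, 150 μM at day 5 or 100 μM at day 10. Untreated A-5 (10.2 CPM) lay below 0 μM and B-4 (37.5 CPM) within the treated range. Against these 2 Prelp did not pass (0.97, SE 0.42, edgeR adjusted p = 0.128), while Bgn kept its adjusted p (0.82, SE 0.20, edgeR adjusted p = 0.0206).

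Kera was at or near the floor of detection. It had 0 counts in both 0 μM libraries and at most 5 in a treated library (17 over all 10 libraries). A count of 3 corresponds to between 0.0502 and 0.118 CPM in these libraries, a floor that covers counting error only, and 2 libraries, with 5 counts each, exceeded 3 counts. It was left out of the tests by the filter on low counts.

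The second comparison was between days. Among the 6 treated libraries, Omd and Aspn were called up on day 10 against day 5, which 0.905% of 16020 genes tested were, and 0 of the 8 genes were called down, against 0.144%. The log2 fold change was 1.43 for Omd (SE 0.26, edgeR adjusted p = 0.0251) and 1.37 for Aspn (SE 0.27, edgeR adjusted p = 0.0334). Fmod was 0.88 higher on the log2 scale (SE 0.19, edgeR adjusted p = 0.0431), below the fold limit. In these 3 genes every library of day 10 lay above every library of day 5, which 11.9% of genes tested showed. The Omd call was lost without 100 μM at day 5 (1.28), 200 μM at day 5 (1.24), 100 μM at day 10 (1.27) or 200 μM at day 10 (1.48), with edgeR adjusted p between 0.0534 and 0.129, and the Aspn call without any of the same 4, with log2 fold changes between 1.12 and 1.43.

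Lum differed by 1.61 (SE 0.43, edgeR adjusted p = 0.0817) and Dcn by 0.79 (SE 0.25, edgeR adjusted p = 0.139) between the days. With dose as a block, which pairs the libraries of a dose, Lum passed (1.61, edgeR adjusted p = 0.00698), and Dcn had an adjusted p of 0.0242 in edgeR under the fold limit (0.82). Day 10 held 2 libraries over 40000000 counts and day 5 held 1. With the library total class, chosen after the values were seen, as a covariate, Lum passed at 1.16 (edgeR adjusted p = 0.00445) and Dcn stayed under the fold limit at 0.56 (edgeR adjusted p = 0.0137). Without 150 μM at day 5, both passed, at 2.16 for Lum (edgeR adjusted p = 0.0361) and 1.15 for Dcn (edgeR adjusted p = 0.0282), and without 100 μM at day 10 Lum passed at 1.95 (edgeR adjusted p = 0.0247). Bgn (0.27), Prelp (0.28) and Ogn (0.18) did not pass, with edgeR adjusted p of 0.363, 0.439 and 0.617.

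Day by day, the treated libraries differed from the single 0 μM library of that day as follows, with 8.93% of 17799 genes called up on day 5 and 11.2% on day 10. Each day has 1 library at 0 μM, which is assumed to vary like the other libraries, so its own variation was not measured. Omd, Aspn, Ogn, Fmod and Dcn were called up on both days. On day 5 their log2 fold changes were 4.18, 3.75, 2.70, 2.15 and 1.52, and on day 10 they were 5.04, 4.98, 2.43, 2.87 and 3.02. Lum passed on day 10 at 3.46 (SE 0.76, edgeR adjusted p = 0.00794) and not on day 5 at 0.80 (SE 0.63, edgeR adjusted p = 0.397), and Prelp passed on day 10 at 1.05 (edgeR adjusted p = 0.0151). The test of the difference between days called none of the 8. It was 2.67 for Lum (SE 0.90, edgeR adjusted p = 0.519) and 1.51 for Dcn (SE 0.52, edgeR adjusted p = 0.535), with 3 of the 8 genes at an unadjusted p under 0.05 against 8.23% of all genes, and DESeq2 gave 0 of the 8 as well. Of 17799 genes, 0.0112% were called.

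The third comparison was across 100, 150 and 200 μM within treated cells, with day as a covariate. A straight slope was fitted, so a peak at the middle dose of 150 μM was not tested. None of the 8 genes passed in edgeR (adjusted p = 0.997 for each), nor in DESeq2, and 1 of 16664 genes (0.006%) did in edgeR. Slopes per 100 μM on the log2 scale ran from -0.47 for Aspn (SE 0.31) to 0.95 for Lum (SE 0.54). Leaving out 1 library moved them between -0.81 (without 100 μM at day 5) and -0.17 (without 100 μM at day 10) for Aspn, between 0.24 (without 100 μM at day 10) and 1.72 (without 200 μM at day 5) for Lum and, without the same 2, between 0.12 and 0.92 for Dcn. Ogn alone had an unadjusted p under 0.05, with a slope of -0.42 (SE 0.16, edgeR adjusted p = 0.997), against 2.35% of all genes. With the library total class as a covariate the slope of Lum was 0.30 and that of Dcn 0.03 instead of 0.43.

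Genes that neighbour the family in the genome were set beside it. Of all genes tested, 13.4% were called up against 0 μM and 5.98% down. Within 500 kb of Aspn, Omd and Ogn, 3 of 11 tested neighbours were called up against 0 μM, with a median of 0.12. The nearest of these was Ecm2, an extracellular matrix gene with leucine-rich repeats that starts the row on the same strand, at 0.379 and 0.381 FPKM at 0 μM and 2.12 ± 0.695 FPKM (SD, n = 6) in treated cells (log2 fold change 2.43, SE 0.25, edgeR adjusted p = 6.97e-05). Cenpp, a centromere protein gene on the opposite strand that spans all 4, did not pass (-0.19, SE 0.19, edgeR adjusted p = 0.457). It shares 7 exon bases with Aspn and none with Omd or Ogn, and its highest count was 318. Wnk2 (0 FPKM in both 0 μM libraries, mean of 0.386 FPKM in treated cells) and Fgd3 (log2 fold change 2.72) were the others called up. Of these, Wnk2 entered the test through the treated libraries alone, so it could not be called down.

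On chromosome 10, Epyc, another small leucine-rich proteoglycan gene, had 0 counts in every library and Ccer1 at most 3, so no neighbour was tested. On chromosome 1, 2 of 18 tested neighbours were called up and 2 down, against 13.4% and 5.98% of all genes tested. Optc, the opticin gene next to Prelp, had 5 to 37 counts and did not pass (0.09, SE 0.42, edgeR adjusted p = 0.87), while Btg2, 26893 bases beyond Fmod, was called down (-1.05, SE 0.15, edgeR adjusted p = 0.000405). Prelp shares 350 exon bases with Gm15851 on the opposite strand, which has no row in the deposited table, so its level is unknown. Without a stated strand setting, reads of Gm15851 in these bases cannot be told apart from those of Prelp. Around Bgn, 2 of 17 tested neighbours were called up and 1 down, against the same shares of all genes.

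**Figure D5:**
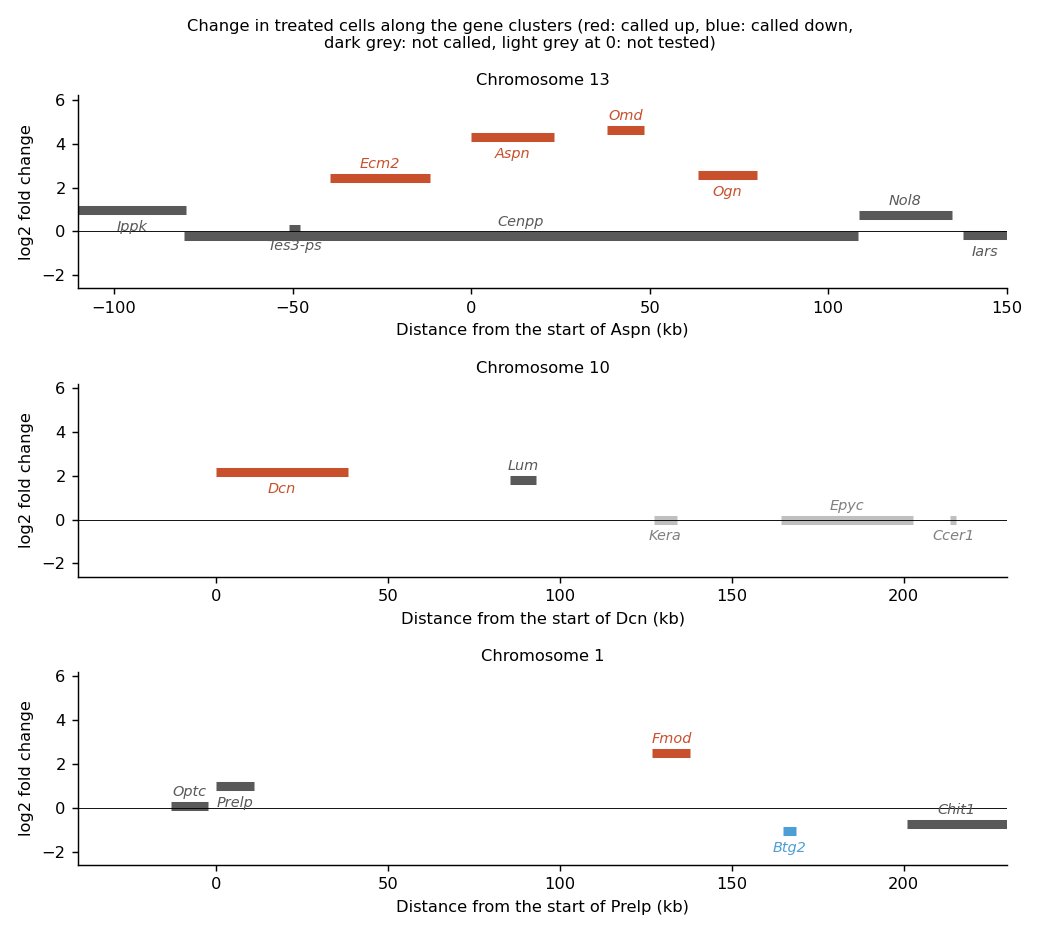
Log2 fold change of treated cells against 0 μM for the genes around 3 clusters, each drawn from start to end by distance in kb from the first gene of the cluster; red is called up, blue called down, dark grey not called and light grey (placed at 0) not tested. On chromosome 13 Ecm2 (2.43), Aspn (4.31), Omd (4.61) and Ogn (2.57) stand above Cenpp (-0.19), and on chromosome 10 Kera and Epyc were not tested.

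The genes with the profile most like each member were found by the root-mean-square difference of centred log2 CPM over the 10 libraries, among 10392 genes. Values were not scaled, so the distance also depends on the size of the change. Genes that change little lie near each other, and genes that change much lie further from most others. Dcn was nearest to Plxnb1 (0.21), Mtus2 (0.22) and Lrp4 (0.28), and Lum to Mtus2 (0.49), Dcn (0.49) and Plagl1 (0.52). Lum was the only member with another member among its nearest 3. Fmod was nearest to Smoc1 (0.31), Fxyd1 (0.38) and Olfml3 (0.43), Ogn to Ankrd35 (0.32), Itga10 (0.34) and Cldn1 (0.34), and Aspn to Ackr4 (0.42), Acsm4 (0.45) and Slc8a2 (0.46). Omd had the most distant neighbours, Tfcp2l1 (0.61), Itgbl1 (0.62) and Fam180a (0.65). Bgn was nearest to Nectin3 (0.11), A130010J15Rik (0.12) and Alas1 (0.13), and Prelp to Epm2a (0.19), Tacc2 (0.24) and Thsd1 (0.26). Within the family, Bgn and Prelp were each other's nearest member (0.51), and so were Dcn and Lum (0.49). Prelp was also the nearest member of Fmod (0.71) and of Ogn (0.93).

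Of 9 other small leucine-rich proteoglycan and related genes, 8 were tested and 2 were called up against 0 μM (median 0.73, against 0.05 over all genes), Ecm2 and Nyx (nyctalopin, 2.33, SE 0.46, edgeR adjusted p = 0.00271, 4 to 14 counts at 0 μM). The share called over all genes tested was 13.4% up and 5.98% down. Among enzymes that build the chondroitin and dermatan sulfate chains, 3 of 19 tested were called up and 0 down (median 0.07). These were the sulfotransferases Chst15 (1.73), Chst11 (1.55) and Ust (1.18), with edgeR adjusted p of 0.00263, 7e-05 and 2.55e-05. In untreated B-4, Chst11 (24.6 FPKM) and Ust (15.9 FPKM) lay above their treated means of 20.6 and 11.9 FPKM. Chst15 lay below its treated mean there, at 6.64 against 14.3 FPKM. For keratan sulfate, 1 of 5 was called up, the galactosyltransferase B4galt1 (1.74, SE 0.14), and 1 down, the sulfotransferase Chst1 (-2.81, SE 0.56, 38 and 23 counts at 0 μM), with a median of 0.28, while Chst5 and B3gnt7 had 0 counts in every treated and 0 μM library. Of 6 genes of sulfate uptake and activation, 0 were called in either direction (median -0.12).

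Matrix partners were counted in the same way, beside 13.4% called up and 5.98% down over all genes tested. Of 10 tested fibrillar and fibril-associated collagens, 3 were called up, Col3a1 (1.76), Col11a2 (1.10) and Col11a1 (1.07), and 1 down, Col5a3 (-1.33), with a median of 0.04. Of 8 tested proteinases and enhancers that act on these cores or on procollagen, 5 were called up and 0 down (median 1.06), led by the collagenase Mmp13 (4.69, SE 0.36), the procollagen proteinase enhancer Pcolce2 (2.92, SE 0.17) and the gelatinase Mmp2 (1.55, SE 0.20). Mmp13 was also called up on day 10 against day 5 (1.94, edgeR adjusted p = 0.00374). In untreated B-4 it had 197 FPKM, against 252 ± 171 FPKM (SD, n = 6) in treated libraries. Pcolce2 and Mmp2 lay further below their treated means there, at 0.983 against 3.94 FPKM and 415 against 993 FPKM. Of 13 tested growth factors and receptors that the cores bind, Tgfb2 was called up (1.29, SE 0.11) and Met down (-1.39, SE 0.12), with a median of 0.34. Of 14 other proteoglycan core genes, Spock2 (2.16, SE 0.19) and the syndecan Sdc2 (1.10, SE 0.11) were called up and 0 down (median 0.16). In untreated B-4, Sdc2 (159 FPKM) lay above its treated mean of 136 FPKM, and Spock2 (91.6 FPKM) below its treated mean of 206 FPKM.

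Marker lists changed in different directions, and their part in the results was not tested. Of all genes tested, 13.4% were called up and 5.98% down. Of 11 osteoblast markers, 5 were called up and 1 was called down, Dmp1 (-2.10), with a median of 1.27. Those called up were Alpl, Ibsp (34 and 27 counts at 0 μM, 2207 to 43074 in treated libraries), Mepe (0 and 3 counts at 0 μM, 5 to 95 in treated libraries) and the transcription factors Sp7 (3.74) and Runx2 (1.27). Alpl and Mepe, with few or no counts at 0 μM, entered the test through the treated libraries, so they could hardly be called down. Summed levels of the list were 1119.8 and 1129 FPKM at 0 μM and 607 to 1387 FPKM in treated libraries. Most of this sum was Spp1 (osteopontin), at 1084 and 1095 FPKM at 0 μM and 745 ± 199 FPKM (SD, n = 6) in treated libraries, with a log2 fold change of -0.56 (SE 0.18, edgeR adjusted p = 0.0325) within the fold limit. Tendon markers other than Kera had 2 of 3 called down, Egr1 (-3.57) and Scx (-1.24, also the median), with summed levels of 86 and 83.2 FPKM at 0 μM and 9.14 to 16.6 FPKM in treated libraries. Egr1 alone made up 79.4 and 77.1 FPKM of this sum at 0 μM and 6.44 FPKM on average in treated libraries, whereas Mkx did not pass (0.34, SE 0.17). In the untreated libraries the sum was 108 FPKM (A-5) and 5.67 FPKM (B-4). Tnmd had at most 2 counts in a treated library. Cartilage markers had 4 of 8 called up (median 1.31), at summed levels of 20.0 and 22.1 FPKM at 0 μM and 21.7 to 35.9 FPKM in treated libraries, and Acan had at most 8 counts there. Summed levels at 0 μM on days 5 and 10 and in treated libraries were 12, 20.9 and 22.5 to 42.5 FPKM for macrophage markers (2 of 4 called up, median 0.31), 2.03, 1.81 and 1.75 to 4.40 FPKM for adipocyte markers (1 of 4, median 1.27), 0.145, 0.186 and 0.454 to 0.616 FPKM for endothelial markers (2 of 3, median 1.77) and 0.756, 0.596 and 1.18 to 2.36 FPKM for muscle markers (1 of 3, median 0.75). None of these 4 lists had a gene called down. Lep, the only adipocyte call, had 2 and 2 counts at 0 μM on days 5 and 10. Cdh5 (endothelial, called up) had 3 and 2, Mrc1 (macrophages, called up) 0 and 5, and Hapln1 (cartilage, called up) 0 and 0. Each of these genes entered the test through the treated libraries, so it could hardly be called down. Col9a1 (0 and 0 counts at 0 μM, not called) also entered the cartilage median.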

How the data were processed

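RNA of MC3T3-E1 cells was sequenced as 10 libraries after oligo(dT) selection (TruSeq kit). The authors deposited 1 table with raw read counts per gene and FPKM values per gene for each library. Per the labels, HISAT2 2.0.4 and GATK 3.2-2 were among their tools. The counting program, strand setting and genome build are not given in the sources used here. Columns with the authors' own comparisons of libraries were not used, and protein sequences were not analysed here. Groups were taken from the labels, and the main fits did not use the 2 untreated libraries.

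Counts were tested with edgeR 4.0.16 (quasi-likelihood, TMM, filterByExpr) over all genes, and a call needed an absolute log2 fold change over 1 with an adjusted p (Benjamini-Hochberg) under 0.05. The tests between days of the treatment effect and of the dose trend had no fold limit. DESeq2 1.42.0, limma 3.58.1 on log2(FPKM + 1), other scalings, filters and controls, and each library left out in turn were the alternatives. CPM used TMM factors over 10 libraries. FPKM as deposited served for levels between genes. Fits were checked on simulated counts. The members and gene lists were chosen with earlier results of these data known, and the lists came from textbook knowledge. Named genes were the 9 members, up to 4 per list (the called ones with the largest change, or defining markers near 0) and the 3 most alike per member (at least 5 CPM on average); neighbours, and other markers or list genes beyond these, were chosen after their values were seen. Of 22036 Ensembl identifiers, 22022 matched GENCODE M21. Library totals (27108562 to 58218009 counts) set the floor of 3 counts.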

Additional observations from a re-analysis of the deposited data

Results flagged for a closer look

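The untreated libraries, which entered none of the main comparisons, held more of several genes than the 0 μM libraries. Set against the higher of the 2 libraries at 0 μM in CPM, Omd was 7.02 times as high in A-5 and 49.2 times as high in B-4. Ogn was 2.87 times as high in A-5 and 8.52 times as high in B-4, and Aspn 2.88 times and 4.73 times as high. Fmod was 2.67 times as high in B-4 and not over 2 times in A-5. Over all genes tested, 5.23% in A-5 and 12.3% in B-4 were over 2 times above both 0 μM libraries, against 3 and 4 of the 8 genes. The labels give no time for these libraries, and each is a single library. No gene of the family had a library standing apart within the treated group by Dixon's test. The treated group spans both days and all doses, and that spread can hide a deviating library from this test.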

How the results depend on the processing

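The direction of all 8 genes in treated cells against 0 μM held under 19 alternatives, except that against the untreated libraries Ogn was -0.17 and Omd -0.32; 2 of the 8 were then called up. That setting called 1078 genes up and 460 down, adding the untreated libraries to 0 μM 1286 and 453, limma on log2(FPKM + 1) 526 and 612, no fold limit 3790 and 3490, and at least 10 counts in every library 1099 up (fewer genes tested). Without 1 library each, 1590 to 2281 genes were called up, 765 to 1010 down, and 5 to 7 of the 8.

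For day 10 against day 5, DESeq2 called 218 up and 60 down, at least 1 count in total 274 and 72, no fold limit 333 and 115, library totals without TMM 72 down and the library total class, added after seeing the data, 44 down. Without 1 library each, 18 to 186 genes were called up, 0 to 38 down, and 0 to 4 of the 8. DESeq2 called 55 genes up and 25 down for the difference between days and 1 down for dose. The library total class gave 3 up and 1 down for dose, and leaving out 1 library 0 to 1 up. Dose slopes then ran from 0.24 to 1.72 (Lum), 0.12 to 0.92 (Dcn), -0.09 to 0.24 (Bgn), -0.11 to 0.47 (Fmod), -0.70 to 0.03 (Omd) and -0.39 to 0.30 (Prelp). Where no cause is named above, the cause was not tested.

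By CPM per kilobase of merged exons, the ranks in treated cells were 1 for Ogn, 2 for Bgn, 5 for Omd, 6 for Dcn, 7 for Prelp and 8 for Lum. By CPM the shares were 20.0% for Fmod and 0.913% for Prelp.

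The labels give no replicate numbers, so dose served as the block between days, which called 3 of the 8 genes up and brought Lum past the threshold (1.61, edgeR adjusted p = 0.00698). A group at 0 μM of 1 library per day, and doses as replicates, limit every test. Lum and Prelp lay near the limits of the call.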
